A study of Mus musculus with 12 samples.

Results

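The comparison described here is the difference between 2 responses to poly(I:C): the change in cells carrying a shortened GADD34 minus the change in wild-type cells. It uses all 12 arrays of the series, 3 in each of 4 groups. The cells, fibroblasts of mouse embryos (MEFs), were either wild type or homozygous for the allele that the labels write as GADD34ΔC/ΔC, called ΔC below. Each genotype was left untreated or was lipofected with 2.5 µg/ml of poly(I:C), a double-stranded RNA made in vitro and here of high molecular weight, and harvested after 6 h. All cells were grown in the same medium, the 4 groups came from 3 independent experiments, and the response covers the RNA and the lipid carrier together, since the untreated cells received neither. The labels give no strain, embryo or number of lines per genotype, so that the difference compares these cultures. A p-value sets it against the spread between arrays of the same group, in which slide and scan day also take part. In the fit with a block, described below, shifts shared by arrays of the same number are first taken out of that spread.

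Levels are log2 intensities relative to the 75th percentile of each array, a response is the treated level minus the untreated level, and the difference is the ΔC response minus the wild-type response, so that a negative difference means a smaller rise in ΔC cells. On this scale 1 unit is a doubling. The test is limma over the 15445 genes with a named probe well above the array's background throughout at least 1 group of 3 arrays, with Benjamini-Hochberg adjustment and a call at an adjusted p under 0.05. It was run without and with the replicate number as a block, which takes out shifts shared by arrays of the same number. The adjusted p of both fits is given in that order. Standard errors (±) and intervals are those of the fit without the block, also where the adjusted p with the block stands beside them. Below, arrays of the same number are called 1 experiment, although it is unclear whether the numbers pair all 4 groups.

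Cells sense double-stranded RNA in the cytosol through the helicases RIG-I and MDA5 and the kinase PKR, and in endosomes through TLR3. The helicases turn on NF-kB and the interferon regulatory factors IRF3 and IRF7, which start the genes of interferon beta, interferon alpha and inflammatory cytokines. Secreted interferon then acts through its receptor, the JAK kinases and STAT proteins, and the resulting complex binds the interferon-stimulated response element (ISRE) in the promoters of many antiviral genes. PKR instead phosphorylates the translation factor eIF2α, which slows protein synthesis, and GADD34, the product of Ppp1r15a, brings protein phosphatase 1 to eIF2α to reverse that step. The C-terminal part of GADD34 is the part that binds the phosphatase. The comparison asks which parts of the transcriptional response to poly(I:C) were kept, lost or gained in ΔC cells.

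Ppp1r15a itself, the targeted gene, separated the genotypes on every array. In wild-type cells its levels were 2.65, 2.62 and 3.37 in experiments 1, 2 and 3 without poly(I:C) and 5.79, 5.83 and 5.81 with it. In ΔC cells they were -7.22, -8.30 and -5.75 without and -4.12, -8.14 and -7.20 with poly(I:C), and only the array reading -4.12 was well above background. Untreated wild-type cells were at least 485-fold higher than untreated ΔC cells, a bound set by the lowest signal that counted as well above background. The response of this gene therefore has no defined size in ΔC cells, and the labels locate neither the deletion nor the probe.

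The promoters of 6 genes are printed as examples of where matches to 2 motifs of this pathway lie. The sequences below are from RefSeq (build GRCm38.p6), end 1 base before the annotated start, and are written 5′ to 3′ in the direction of transcription. Capitals mark matches on either strand to the ISRE, searched as GAAA, any 2 bases and GAAA, or to the NF-kB site, searched by its consensus. Rsad2, Isg15 and Cxcl10 stand for genes whose response was smaller in ΔC cells under the block. Without the block they had no called difference and counted as kept. In both fits, Gbp2b stands for a response that was no longer called, Cxcl1 for a larger one and Nfkbia for a kept one. Each gene was shown because it holds a match.
Rsad2, chr12:26456453-26456602, minus strand: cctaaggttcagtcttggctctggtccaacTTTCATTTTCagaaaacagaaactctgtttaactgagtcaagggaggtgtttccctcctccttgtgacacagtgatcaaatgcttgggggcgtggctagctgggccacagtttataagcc
Isg15, chr4:156200819-156200968, minus strand: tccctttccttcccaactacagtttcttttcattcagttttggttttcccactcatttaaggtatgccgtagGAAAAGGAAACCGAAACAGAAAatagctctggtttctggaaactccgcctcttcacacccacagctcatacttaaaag
Cxcl10, chr5:92348890-92349109, minus strand: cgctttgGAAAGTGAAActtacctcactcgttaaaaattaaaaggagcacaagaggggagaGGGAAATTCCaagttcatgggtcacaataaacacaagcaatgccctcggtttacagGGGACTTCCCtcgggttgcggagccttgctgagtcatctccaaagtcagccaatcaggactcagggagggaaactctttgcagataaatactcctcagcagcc
Gbp2b, chr3:142594697-142594846, plus strand: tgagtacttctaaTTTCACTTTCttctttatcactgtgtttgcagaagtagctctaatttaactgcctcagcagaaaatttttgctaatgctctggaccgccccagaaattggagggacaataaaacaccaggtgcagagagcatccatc
Cxcl1, chr5:90891095-90891244, plus strand: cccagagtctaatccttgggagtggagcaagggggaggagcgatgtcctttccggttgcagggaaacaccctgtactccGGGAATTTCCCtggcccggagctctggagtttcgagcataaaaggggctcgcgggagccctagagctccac
Nfkbia, chr12:55492648-55492797, minus strand: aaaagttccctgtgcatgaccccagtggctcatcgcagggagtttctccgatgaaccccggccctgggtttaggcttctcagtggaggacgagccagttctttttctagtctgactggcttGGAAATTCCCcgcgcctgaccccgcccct
Rsad2 and Gbp2b each held 1 ISRE match and no NF-kB match, and Isg15 held 3 overlapping ISRE matches. Cxcl10 held 1 ISRE match and 2 NF-kB matches. Cxcl1 and Nfkbia held NF-kB matches (2 overlapping in Cxcl1, 1 in Nfkbia) and no ISRE match in the stretch shown. In windows from 250 bases before to 50 bases after the start, an ISRE match lay at 12 of the 31 genes with a promoter in the table among the 37 with a called lower response under the block (38.7%). Among the genes whose response was kept within a factor of 2, described below, it lay at 2 of 45 (4.44%), among all kept genes at 35 of 197 (17.8%) and among all genes tested at 454 of 12250 (3.71%). An NF-kB match lay at 12.9%, 13.3%, 14.2% and 6.21% of the same 4 sets. The kept genes here are those of the fit without the block, so the sets are not separate. Isg15 and Cxcl10, for example, are counted both among the lower and among the kept genes. In the lists of genes used below, the ISRE share was 52.8% for interferon-stimulated genes and 3.85% for NF-kB targets, against NF-kB shares of 7.55% and 38.5%. These are letter matches, counted without a test, and say nothing of factor binding in these cells.

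Of the 1046 genes whose response was called in wild-type cells without the block, 241 were also called in ΔC cells with no called difference, and in the fit with the block the called differences were mostly smaller ΔC responses. Without the block, 2 genes had a called negative difference (0.0129% of all genes tested) and 1 gene a positive one (0.00647%). With the block, 37 genes were lower (0.24%) and 4 higher (0.0259%). Over all genes the 3 ΔC responses lay below the 3 wild-type ones in 1058 (6.85%) and above them in 1469 (9.51%). An unadjusted p under 0.05 was reached by 836 genes (5.41%) without and by 1234 genes with the block. All 37 lower genes rose in wild-type cells in the fit with the block, and of these 23 rose less in ΔC cells and 14 were no longer called there. Without the block, 241 genes (1.56%) were called in both genotypes with no called difference, and all 241 rose. They are called kept, although for most of them the interval of the difference was wide: it lay within 1 log2 unit of 0 for 54 (0.35%), which became 9 with median scaling, 4 when slide and 7 when scan day was the block, and 18 to 71 without 1 array (18 without the second untreated ΔC array). A further 802 genes (5.19%) were called in wild-type cells only with no called difference, which does not show that they were lost. Gained responses numbered 0 without and 3 with the block.

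**Figure D1:**
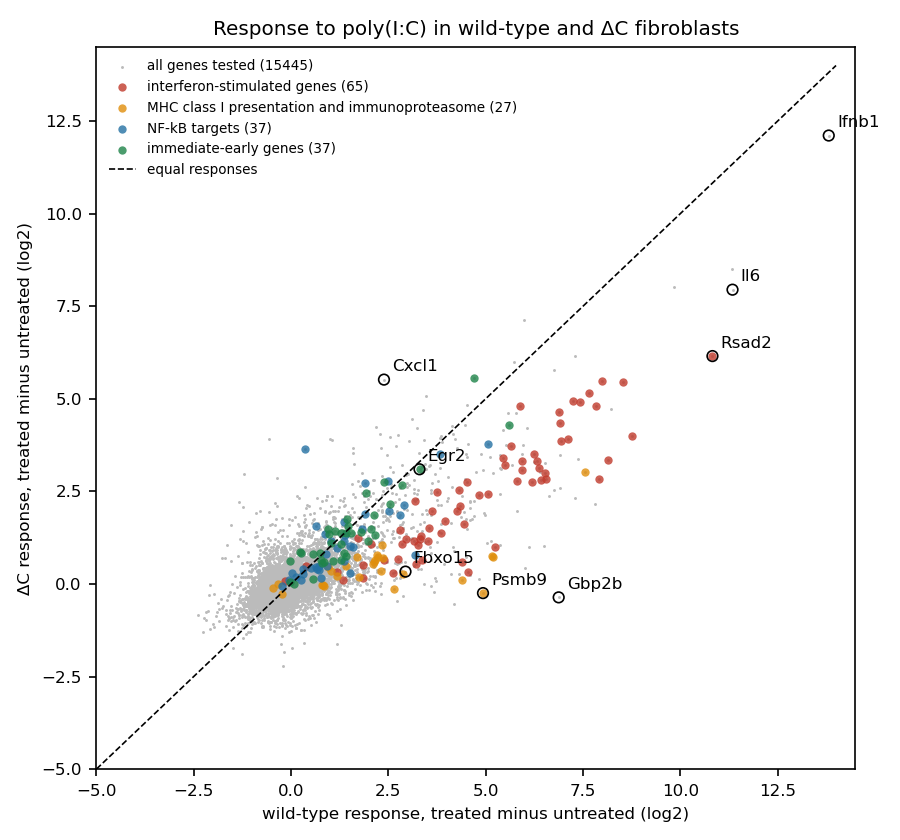
Response to poly(I:C) in wild-type cells (horizontal axis, log2) and in ΔC cells (vertical axis, log2), 1 point per gene, each the mean of 3 treated minus 3 untreated arrays, with 4 gene lists in colour and a dashed line where both responses are equal. Interferon-stimulated genes lie below the line with a median of 4.51 against 2.39, immediate-early genes lie along it with 1.29 against 1.32, and Cxcl1 lies above it.

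One array had a large part in these counts. The median wild-type response of the 37 lower genes was 5.07, 4.87 and 4.30 in experiments 1, 2 and 3, and the ΔC response was 1.86, 1.58 and 1.11. Without the treated wild-type array of experiment 3, 200 genes were lower and 10 higher with no block. Without the other arrays, 1 at a time, the lower genes numbered 0 to 3 and the higher ones 0 to 2. Of the 37 lower genes of the blocked fit, 27 were also lower without a block once that array was left out. The 12 arrays were spread over 5 slides and 3 scan days, and only 1 scan day held all 4 groups (6 arrays). That day held 1 untreated wild-type and 1 treated ΔC array and 2 arrays of each other group. The median difference of the 37 genes, which were chosen on all 12 arrays, these 6 among them, was -2.77 within that day and -2.86 over all arrays. As blocks, slide and scan day left 0 genes with a called difference in either direction. Of the other scan days, 1 held only untreated wild-type and treated ΔC arrays, both of which add to the difference. The remaining day held only treated wild-type and untreated ΔC arrays, both of which are subtracted in it. A shift between scan days would therefore enter the difference, with or without the replicate block.

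Gbp2b, which encodes a guanylate-binding protein, an interferon-induced GTPase of cell-autonomous defence, had the largest difference of all genes tested. Its levels in wild-type cells were -3.15, -3.04 and -4.40 untreated and 4.05, 4.12 and 1.86 with poly(I:C). The ΔC cells read -7.52, -6.96 and -6.92 untreated and -7.60, -8.26 and -6.63 treated, with no array well above background. Thus all 3 wild-type experiments showed a rise of at least 6 log2 units and no ΔC experiment showed signal, and the groups did not overlap with or without poly(I:C). The treated wild-type level was at least 621-fold above the treated ΔC level and the untreated one at least 5.91-fold above. The difference was -7.24 ± 0.89 (SE; limma adjusted p = 0.0483 without and 0.0296 with the block, 0.000384 to 0.35 over all alternatives), or -6.71 with background readings raised to the lowest measurable signal. Leaving out any array but the third wild-type or the third ΔC array with poly(I:C) put the adjusted p between 0.0821 and 0.229. Both tested probes of the gene gave a like value (-7.29 and -7.24).

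Fbxo15, the gene of an F-box protein best known from embryonic stem cells, rose in wild-type cells only. Wild-type levels were -5.27, -4.57 and -5.16 untreated and -2.01, -2.08 and -2.10 treated. The ΔC levels were -4.63, -5.03 and -4.97 untreated and -4.72, -4.62 and -4.29 treated. The genotypes overlapped without poly(I:C) and were 2.48 log2 units apart with it. The wild-type response was 2.94 ± 0.20, a 7.67-fold rise, and the ΔC response 0.33 ± 0.20, which was not called, with a difference of -2.61 ± 0.28 (limma adjusted p = 0.018 and 0.0171, 0.00142 to 0.346 over all alternatives). The value moved little without any 1 array (-2.82 to -2.47), although 8 of the 12 omissions put the adjusted p above the threshold, at 0.0616 to 0.105.

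Cxcl1, a chemokine gene that draws neutrophils and is a classical NF-kB target, was the gene with the larger response in ΔC cells. In wild-type cells it read 3.66, 3.81 and 3.21 untreated and 6.02, 6.04 and 5.78 treated. In ΔC cells it read -0.52, -0.39 and 0.19 untreated and 5.45, 5.33 and 5.04 treated. The treated levels of the genotypes were 0.67 apart and the untreated levels 3.80 apart, so that the larger rise started from a lower level and ended below the wild-type one. The rise was 5.23-fold in wild-type and 45.8-fold in ΔC cells, a difference of 3.13 ± 0.31 (limma adjusted p = 0.0176 and 0.014, 5.48e-05 to 0.826 over all alternatives). The value was 2.99 to 3.35 without any 1 array, and the adjusted p was 0.0532 to 0.0937 without the first or second array of treated wild-type, untreated ΔC or treated ΔC cells.

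Interferon-stimulated genes made up the largest group with smaller responses. Of the 65 list members tested, 0 had a called difference without the block and 15 with it, all 15 lower. In 59 of the 65 (90.8%) every ΔC response lay below every wild-type response, and in 0 above it, against 6.85% and 9.51% of all genes tested. The median response was 4.51 in wild-type and 2.39 in ΔC cells and the median difference -2.32, against 0.07 over all genes. It was -2.25, -2.40 and -2.31 in experiments 1, 2 and 3. The third experiment had smaller responses in both genotypes (medians of 3.72 and 1.57) and the same gap between them. The treated level itself was lower in ΔC cells, at a median of 2.26 against 4.42, while the untreated medians were -0.42 and -0.90.

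Among the effectors of this list, Rsad2, whose product viperin makes a chain-terminating nucleotide, read -6.10, -6.92 and -6.87 in untreated and 4.68, 4.57 and 3.33 in treated wild-type cells. Its ΔC levels were -4.80, -5.64 and -5.43 untreated and 1.61, 1.27 and -0.28 treated. Every treated wild-type array was above every treated ΔC array, and no untreated wild-type array was well above background. The rise was at least 1092-fold in wild-type and 71.2-fold in ΔC cells, with a difference of -4.67 ± 0.73 (limma adjusted p = 0.184 without and 0.0136 with the block), or -3.94 at the bound. Cmpk2, the neighbouring nucleotide kinase gene, read -5.27, -5.63 and -6.45 untreated and 3.66, 3.54 and 1.69 treated in wild-type cells. In ΔC cells Cmpk2 read -3.46, -4.01 and -5.57 untreated and 0.76, 0.53 and -2.35 treated, a difference of -4.76 ± 1.24 (adjusted p = 0.397 and 0.014). In both genotypes the third experiment read lowest.

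Isg15, the gene of the ubiquitin-like modifier, was measured far above background in all groups. Wild-type cells read 3.52, 3.14 and 3.18 untreated and 9.28, 9.14 and 8.33 treated. The ΔC cells read 4.26, 3.75 and 3.62 untreated and 7.80, 7.97 and 7.02 treated. Untreated ΔC cells were thus slightly above and treated ΔC cells clearly below wild type, on every array. The rise was 49.9-fold and 13.1-fold, a difference of -1.93 ± 0.44 (limma adjusted p = 0.345 and 0.0417). Its second probe gave -2.43.

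The ADP-ribosyltransferase genes Parp14, Parp9 and Parp10 and Dtx3l, the ubiquitin ligase partner of Parp9, all had smaller responses under the block. Parp14 read -0.49, -0.81 and -1.97 untreated and 5.97, 5.88 and 4.16 treated in wild-type cells, against -0.41, -0.72 and -0.51 untreated and 2.88, 2.58 and 1.32 treated in ΔC cells. Its untreated levels overlapped between the genotypes and its treated levels did not. The difference was -3.62 ± 0.79 for Parp14 (limma adjusted p = 0.296 and 0.0296), -2.50 ± 0.45 for Dtx3l (0.213 and 0.0121), -2.25 for Parp9 (0.446 and 0.0358) and -2.05 for Parp10 (0.582 and 0.0264). Oasl2 and Oas1c, of the oligoadenylate synthetase family, had differences of -3.08 and -2.25 (block-adjusted p = 0.0317 and 0.0321). For Trim21, the gene of an intracellular antibody receptor, and Trim12a, a TRIM gene that is not on the list, the values were -2.65 and -2.93 (block-adjusted p = 0.0171 and 0.0373). Without the block the differences of Oasl2, Oas1c, Trim21 and Trim12a were not called. Ifit1bl1 had a difference of -5.08 ± 1.17 (limma adjusted p = 0.348 without and 0.0171 with the block), with 1 of 3 untreated wild-type arrays well above background.

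Other antiviral genes of the list had differences of a like size that passed neither fit, and their responses were called in both genotypes. Ifit1, whose product binds viral RNA ends, had responses of 8.53 and 5.44, a difference of -3.09 ± 0.66 (limma adjusted p = 0.279 and 0.194). For Usp18, which removes ISG15 from proteins and dampens interferon receptor signalling, the responses were 7.83 and 4.80 (difference -3.03 ± 0.71, 0.361 and 0.097). Oasl1 responded by 7.65 and 5.15, and Ifit3 by 7.44 and 4.92. Under the rule above these genes count as kept, with intervals that run from -4.57 to -1.61 for Ifit1 and from -4.61 to -1.46 for Usp18. Over the list, 31 of 65 members were kept in that sense, 0 of them with an interval within 1 unit, and 31 were called in wild-type cells only.

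Guanylate-binding proteins and immunity-related GTPases, which attack the vacuoles of intracellular pathogens, showed the same pattern with lower ΔC responses. Of 18 members tested, 1 was lower without and 4 with the block, in 13 (72.2%) every ΔC response lay below every wild-type one and in 1 (5.56%) above it, against 6.85% and 9.51% of all genes. The median response was 5.68 in wild-type and 1.77 in ΔC cells. Ifi47 read -1.24, -1.31 and -1.87 untreated and 5.58, 5.50 and 2.85 treated in wild-type cells. In ΔC cells Ifi47 read -1.19, -0.57 and -1.55 untreated and 0.67, 0.42 and -1.40 treated, so that the untreated levels overlapped and each ΔC experiment rose by less than 2 units. Its difference was -5.12 ± 1.04 (limma adjusted p = 0.245 and 0.0238), and its ΔC response of 1.00 ± 0.73 was not called. Igtp had responses of 6.92 and 2.60 (difference -4.32 ± 0.84, 0.237 and 0.0121) and Irgm2 of 6.52 and 3.27 (difference -3.25 ± 0.82, 0.369 and 0.0121). Members of these families and of the Ifit and Oas families resemble each other in sequence, and whether their probes tell them apart was not tested.

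**Figure D2:**
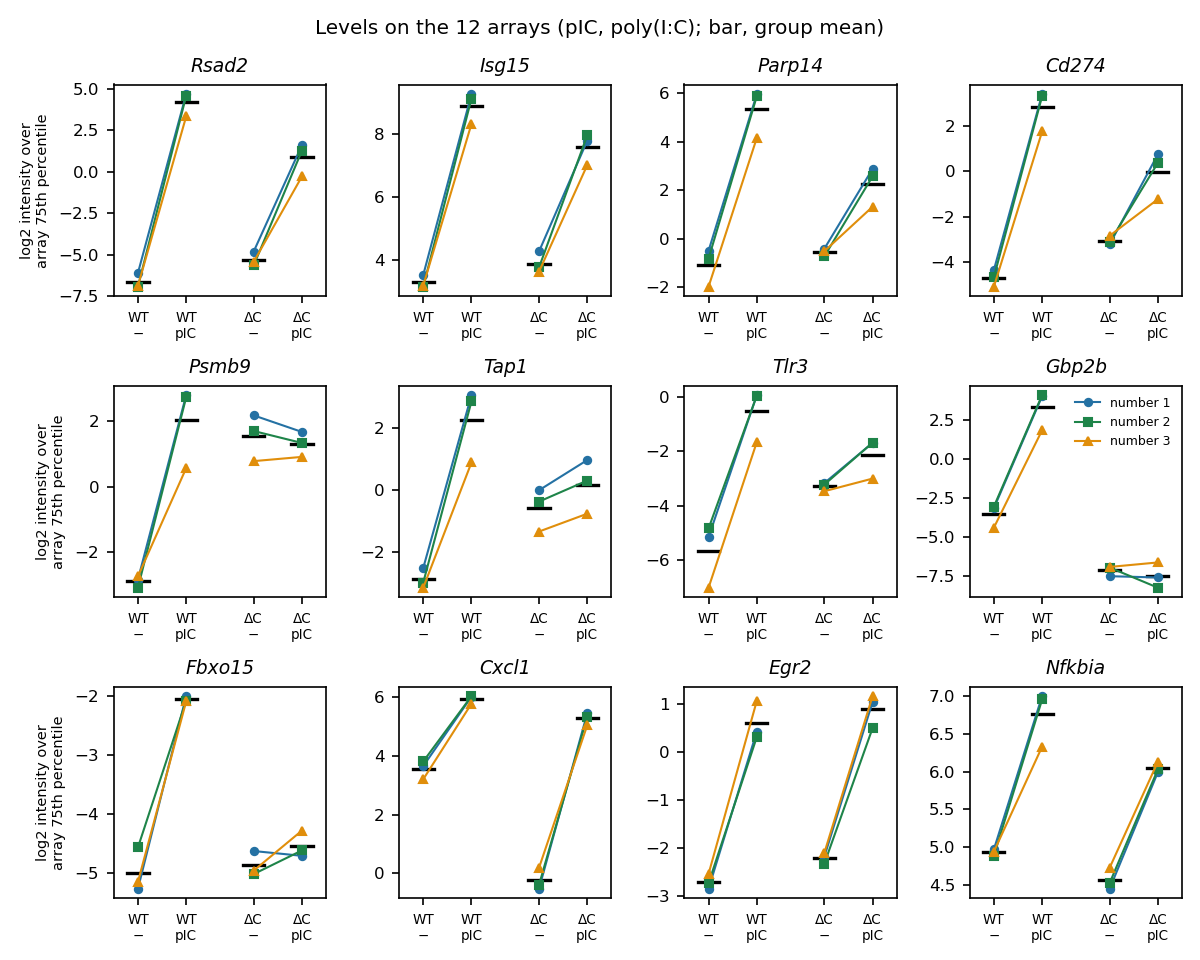
Log2 level of 12 genes on each of the 12 arrays relative to the array's 75th percentile (vertical axes, with ranges that differ between genes), for wild-type (WT) and ΔC cells without (−) and with poly(I:C) (pIC); lines join arrays of the same genotype and replicate number, and black bars are means of 3 arrays. Rsad2, Isg15, Parp14 and Cd274 rise less in ΔC cells, Psmb9 and Tap1 start higher there and have no called ΔC response, Gbp2b and Fbxo15 rise in wild-type cells alone, Cxcl1 starts lower and rises more, and Egr2 and Nfkbia rise in both genotypes, with differences of -0.20 and -0.35.

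Antigen presentation genes mostly had a called response in wild-type cells only, and several of them were already higher in ΔC cells without poly(I:C). Of 27 such genes (MHC class I pathway and immunoproteasome), 0 had a called difference without and 5 with the block, all lower: Psmb9, Tap1, Tap2, H2-M3 and Cd274. The median response was 2.13 in wild-type and 0.36 in ΔC cells, 19 were called in wild-type cells only and 1 was kept. Every ΔC response lay below every wild-type one in 17 of 27 (63.0%) and above it in 2 (7.41%), against 6.85% and 9.51% of all genes. The median difference was -2.10, -1.74 and -0.56 in experiments 1, 2 and 3, so that the gap was smallest in the third.

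Psmb9, a catalytic subunit of the immunoproteasome, read -2.84, -3.09 and -2.74 untreated and 2.81, 2.74 and 0.57 treated in wild-type cells. In ΔC cells it read 2.19, 1.71 and 0.79 untreated and 1.68, 1.34 and 0.92 treated. All 6 ΔC arrays lay in the range of treated wild-type cells, and the ΔC response of -0.25 ± 0.56 was not called. The wild-type rise was 30.5-fold, the untreated ΔC level was 21.9-fold above untreated wild type, and the difference in response was -5.18 ± 0.79 (limma adjusted p = 0.174 without and 0.0171 with the block). Psmb8, its partner subunit, had the same shape with untreated levels 4.54 apart, responses of 4.39 and 0.11 and a difference of -4.28 ± 0.86 that passed neither fit (0.245 and 0.148).

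Tap1 and Tap2, which form the peptide transporter into the endoplasmic reticulum, also started higher in ΔC cells. Tap1 read -2.53, -3.0 and -3.16 untreated and 3.05, 2.85 and 0.87 treated in wild-type cells, against -0.02, -0.39 and -1.35 untreated and 0.95, 0.29 and -0.78 treated in ΔC cells. Treated ΔC cells lay below the first 2 treated wild-type arrays and around the third. The difference was -4.41 ± 0.86 for Tap1 (limma adjusted p = 0.237 and 0.0121) and -2.79 ± 0.71 for Tap2 (0.369 and 0.0411), whose untreated level was 2.21 higher in ΔC cells and whose ΔC response was -0.15 ± 0.50. H2-M3, a nonclassical class I heavy chain, differed by -2.61 ± 0.47 (0.213 and 0.0171).

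Nlrc5, the transactivator of class I genes, read -4.04, -4.38 and -3.16 untreated and 2.16, 2.02 and -0.23 treated in wild-type cells. In ΔC cells its levels were -0.81, -1.22 and -0.44 untreated and 0.16, -0.30 and -0.13 treated. Like Psmb9 and Tap1, it had a higher untreated level in ΔC cells and no called ΔC response, with a difference of -4.45 ± 0.80 that passed neither fit (limma adjusted p = 0.213 and 0.121) and a second probe at -1.31. Cd274, the gene of the checkpoint ligand PD-L1, had responses of 7.54 and 3.03 (difference -4.51 ± 0.76, 0.213 and 0.0296), and its response was called in both genotypes.

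Over all 37 lower genes, the smaller response came mainly with a lower treated level. The treated ΔC level was lower by at least 1 unit in 32 of the 37, while the untreated levels lay within 1 unit in 22, were higher in ΔC cells by at least 1 in 14 and lower by at least 1 in 1, Gbp2b. The median level of these genes went from -1.55 to 3.68 in wild-type and from -0.72 to 1.16 in ΔC cells. By list, 15 were interferon-stimulated genes and 27 belonged to at least 1 list. Since these genes were selected by the same values, the counts describe them and carry no test.

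Some lower genes were on none of the interferon lists, and whether interferon induces them was not tested. Ptpn13, a protein tyrosine phosphatase gene, read -3.24, -4.06 and -3.69 untreated and -0.47, -0.95 and -1.39 treated in wild-type cells, against -0.32, -1.15 and -1.75 untreated and -0.96, -1.91 and -1.76 treated in ΔC cells. It was 2.60 higher in untreated ΔC cells and its ΔC response of -0.47 ± 0.40 was not called (difference -3.20 ± 0.56, limma adjusted p = 0.213 and 0.0121). Adamts1, a secreted metalloprotease gene, was at like levels in untreated cells (2.91, 2.96 and 2.84 in wild type, 3.08, 2.70 and 2.87 in ΔC) and rose in wild-type cells alone, to 4.67, 3.92 and 3.9, against 2.75, 2.27 and 2.50 (difference -1.64 ± 0.30, 0.221 and 0.0373). Apobec1, a cytidine deaminase gene, had responses of 3.27 and 0.41 (difference -2.86 ± 0.56, 0.237 and 0.0121). Ch25h, which makes the antiviral oxysterol 25-hydroxycholesterol, had responses of 6.76 and 2.53 (difference -4.23 ± 0.74, 0.213 and 0.0411).

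Of the other lower genes of the blocked fit, Tent5a, a poly(A) polymerase gene, had a difference of -3.03, Ppm1k, a mitochondrial phosphatase gene, of -2.67, Nmi, whose product binds STAT proteins, of -2.66, Tmem140 of -2.37, Rasgef1b of -2.31 and Znfx1, an RNA helicase gene, of -1.73. Gipc2 was well above background on no wild-type array and on all 6 ΔC arrays, so that its wild-type response and its fitted difference of -1.78 rest on background readings; raised to the floor, the difference was -0.39.

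Sensors of double-stranded RNA responded unevenly. Of 30 genes of RNA sensing and its signalling, 0 had a called difference without and 1 with the block, and the ΔC responses lay below the wild-type ones in 17 (56.7%) and above them in 1 (3.33%), against 6.85% and 9.51% of all genes. Tlr3, the gene of the endosomal receptor, was the called one. It read -5.15, -4.83 and -7.01 untreated and 0.07, 0.04 and -1.66 treated in wild-type cells, and -3.17, -3.22 and -3.46 untreated and -1.69, -1.68 and -3.0 treated in ΔC cells. Its difference was -3.98 ± 0.89 (limma adjusted p = 0.321 and 0.0171). Ifih1, which encodes MDA5, was 2.69 higher in untreated ΔC cells and 0.29 lower in treated ones (responses 6.31 and 3.33, difference -2.99 ± 0.59, 0.242 and 0.132).

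Eif2ak2, the gene of PKR, had responses of 3.30 and 1.2 (difference -2.10 ± 0.63, limma adjusted p = 0.546 and 0.175). Zbp1, whose product senses Z-RNA and can start necroptosis, had responses of 5.23 and 0.99 (difference -4.24 ± 0.91, 0.279 and 0.148). Its ΔC levels of -0.60, -1.18 and -1.57 with poly(I:C) lay far below the wild-type levels of 5.00, 5.03 and 2.11. Tnfsf10, the gene of the death ligand TRAIL, read 0.61, 0.64 and -2.08 in treated wild-type and -4.41, -4.78 and -8.28 in treated ΔC cells, and no untreated array was well above background. Its fitted difference was -5.64 (limma adjusted p = 0.369 and 0.132), and it was -4.64 at the floor. Of 37 cell death regulators, 0 were called in either fit 11 (29.7%) had lower and 6 (16.2%) higher ΔC responses without overlap, against 6.85% and 9.51% of all genes.

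In the interferon receptor, JAK-STAT and SOCS list, every ΔC response lay below every wild-type one in 7 of 32 genes (21.9%). Every ΔC response lay above in 3 (9.38%), and the shares over all genes were 6.85% and 9.51%. The median difference was -0.07, and 1 gene was lower under the block. That gene was Stat2, which read 1.18, 1.11 and 0.24 untreated and 5.46, 5.45 and 4.54 treated in wild-type cells, against 1.63, 1.54 and 0.91 untreated and 4.46, 4.38 and 2.85 treated in ΔC cells. Its untreated levels overlapped and its treated levels stayed apart by a narrow margin (difference -1.77 ± 0.64, limma adjusted p = 0.721 and 0.0373). Among interferon regulatory factor genes, Irf7 differed by -2.62 ± 1.03 (limma adjusted p = 0.813 and 0.113) and Irf1 by -1.24 ± 0.44 (0.687 and 0.235), and neither passed.

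**Figure D3:**
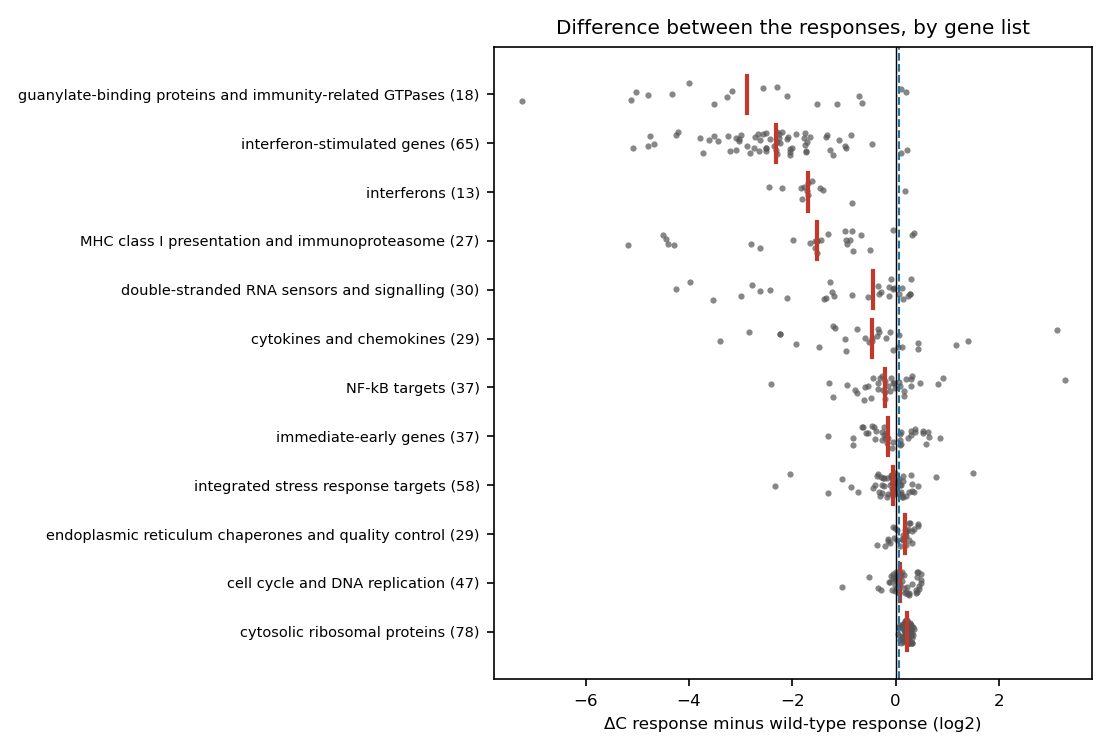
Difference between the responses (ΔC minus wild type, log2, horizontal axis) for each tested gene of 12 lists, with numbers of genes in parentheses; red bars are list medians, the black line is 0 and the dashed line is the median of all 15445 genes. The medians run from -2.87 for guanylate-binding proteins and immunity-related GTPases to 0.23 for cytosolic ribosomal proteins.

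Interferon genes themselves had no called difference in response. Of 13 interferon genes tested, 0 had a called difference in either fit, 5 were kept and 7 were called in wild-type cells only. The fitted difference was negative in 12 of the 13, against 6061 of all 15445 genes. Every ΔC response lay below every wild-type one in 1 (7.69%) and above it in 0, against 6.85% and 9.51% of all genes. The median response was 3.85 in wild-type and 2.24 in ΔC cells, and the median difference was -1.70. By experiment the median difference was -2.17, -2.96 and 0.02 in experiments 1, 2 and 3, and single genes departed from it: Ifnb1 had -1.57, -1.28 and -2.26. A contrast between experiments was not tested. Ifnb1 was well above background on no untreated wild-type array and on 1 untreated ΔC array. With poly(I:C) it read 6.78, 6.58 and 5.58 in wild-type and 5.18, 4.99 and 5.28 in ΔC cells, so that every treated ΔC level was below every wild-type one by a small margin in the third experiment. The rise was at least 4744-fold in wild-type cells, and the difference was -1.70 ± 0.94 (limma adjusted p = 0.987 and 0.725), with a 95% interval of -3.80 to 0.39. Ifna4, an interferon alpha gene, read 2.98, 3.04 and 0.52 in treated wild-type and 0.16, -0.28 and 0.21 in treated ΔC cells (difference -1.80 ± 0.86, 0.956 and 0.71), with no untreated array well above background. At the floor the differences were -1.24 for Ifnb1 and -1.95 for Ifna4. Without the treated wild-type array of experiment 3 the adjusted p was 0.565 for Ifnb1 and 0.0397 for Ifna4.

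Cytokines and chemokines went in both directions. Of 29 tested, 0 were lower and 1 higher without the block, and 2 were lower and 1 higher with it, with 14 kept. Of all genes tested, 0.24% were lower and 0.0259% higher with the block, and 1.56% were kept. Every ΔC response lay below every wild-type one in 6 of the 29 (20.7%) and above it in 3 (10.3%), against 6.85% and 9.51% of all genes. Il6 and Cxcl10 were the lower ones and Cxcl1, described above, the higher one. Cxcl10, an interferon-induced chemokine gene that draws T cells, read 2.4, 2.32 and 2.33 untreated and 9.60, 9.46 and 8.60 treated in wild-type cells. In ΔC cells Cxcl10 read 3.28, 3.27 and 3.12 untreated and 7.98, 7.93 and 7.71 treated. Its groups were separate on every array, with a higher start and a lower end in ΔC cells. The rise was 117-fold against 25-fold, a difference of -2.23 ± 0.31 (limma adjusted p = 0.113 and 0.0171, and 0.00016 without the treated wild-type array of experiment 3).

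Il6, the gene of a cytokine of fever and the acute phase, read 4.71, 4.60 and 3.01 in treated wild-type and 3.60, 3.23 and 2.90 in treated ΔC cells. Its untreated levels were -7.01, -7.43 and -7.25 in wild-type cells, none well above background, and -4.55, -4.76 and -4.79 in ΔC cells. The rise was at least 1028-fold in wild-type and 247-fold in ΔC cells, and the fitted difference of -3.40 ± 0.55 (limma adjusted p = 0.201 and 0.0296) became -2.06 with background readings raised to the floor (0.379). Of the fitted difference, 2.53 lay between the untreated levels, where wild-type cells were at background, and 0.86 between the treated levels. Ccl4 had no untreated array well above background in either genotype, so that its fitted difference of -2.84 ± 0.67 (0.369 and 0.166) rests on background readings, and it was -3.42 at the floor (0.054). Ccl5 differed by -1.17 ± 0.53 (0.918 and 0.675), without a call.

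Genes with a larger or gained response in ΔC cells were few. Nr1i3, which encodes the nuclear receptor CAR, read -4.27, -4.61 and -4.35 untreated and -4.11, -4.89 and -4.18 treated in wild-type cells. In ΔC cells Nr1i3 read -5.27, -5.46 and -4.92 untreated and -3.65, -3.62 and -3.24 treated, a rise of 1.72 ± 0.23 from a lower start (difference 1.70 ± 0.32, limma adjusted p = 0.236 without and 0.0296 with the block). Crybg2 had responses of 1.22 in ΔC and 0.08 in wild-type cells (difference 1.14 ± 0.26, 0.361 and 0.0417). Tulp2 was at like untreated levels of -0.86, -0.99 and -0.41 in wild-type and -1.01, -0.99 and -0.41 in ΔC cells. With poly(I:C) Tulp2 read -1.22, -1.0 and -0.71 in wild-type and -0.03, 0.24 and 0.34 in ΔC cells (difference 1.22 ± 0.31, 0.369 and 0.0373), so that only the treated groups parted. These 3 genes are the gained responses of the blocked fit, and each was called in 3 of 29 alternatives, that fit among them. Over the alternatives the difference ran from 0.689 to 2.05 for Nr1i3, 0.505 to 1.26 for Crybg2 and 0.923 to 1.41 for Tulp2. Nr1i3 and Crybg2 were dim genes, not far above the floor, although well above background on every array.

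Some NF-kB targets had larger fitted responses in ΔC cells without a call. Sele, the gene of E-selectin, was well above background on the 3 treated ΔC arrays alone, at -3.84, -4.43 and -5.74. Its fitted difference of 3.27 ± 0.62 (limma adjusted p = 0.236 without and 0.121 with the block) became 1.44 at the floor. Cxcl2, a neutrophil chemokine gene, read -2.03, -2.06 and -1.81 in treated wild-type and -1.17, -1.42 and -0.45 in treated ΔC cells, with no untreated array well above background (difference 1.16 ± 0.32, 0.451 and 0.107). Zc3h12a, the gene of an RNase that degrades cytokine transcripts, had responses of 0.64 and 1.56 (difference 0.91 ± 0.23, 0.369 and 0.0734). In the other direction, Cd40 differed by -2.41 as fitted and by -0.42 at the floor, since no untreated wild-type array was well above background.

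NF-kB targets and immediate-early genes had medians close to each other in both genotypes, over members that went in either direction. The median response of 37 NF-kB targets was 1.02 in wild-type and 0.97 in ΔC cells, 0 were called for the difference in either fit, 12 were kept and 3 of these lay within 1 unit, and single differences ran from -2.41 to 3.28. For 37 immediate-early genes, which growth factor and stress signals induce quickly, the medians were 1.29 and 1.32, with 0 called, 13 kept and 5 within 1 unit. Every ΔC response lay below every wild-type one in 6 NF-kB targets (16.2%) and 0 immediate-early genes, and above it in 4 (10.8%) and 3 (8.11%), against 6.85% and 9.51% of all genes. The experiments of both genotypes shared a smaller response of immediate-early genes in experiment 3 (medians of 0.61 and 0.58, against 1.44 to 1.83 in the others).

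Egr2, an immediate-early transcription factor gene, had one of the clearest kept responses. Its levels were -2.84, -2.73 and -2.53 untreated and 0.43, 0.31 and 1.06 treated in wild-type cells, and -2.17, -2.32 and -2.10 untreated and 1.04, 0.50 and 1.16 treated in ΔC cells. The rise was 9.85-fold and 8.55-fold, and the difference was -0.20 with a 95% interval of -0.90 to 0.50. Zfp36, whose product tristetraprolin speeds the decay of cytokine transcripts, had responses of 2.85 and 2.69 (interval of the difference -0.87 to 0.54). Nfkbia, the gene of the NF-kB inhibitor IκBα, read 4.97, 4.88 and 4.94 untreated and 7.00, 6.96 and 6.33 treated in wild-type cells, against 4.44, 4.52 and 4.72 untreated and 5.99, 6.03 and 6.13 treated in ΔC cells. Its difference was -0.35 with an interval of -0.88 to 0.19, although every treated ΔC array was below every treated wild-type array.

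Further kept genes within 1 unit were Btg2, an antiproliferative gene, with responses of 1.79 and 1.40, and Klf6, a transcription factor gene, with 1.55 and 1.36. The histone genes H2bc4 and H1f2 rose by 2.34 and 2.10 in wild-type and by 2.00 and 1.68 in ΔC cells, with intervals of the difference from -0.97 to 0.30 and from -0.81 to -0.02. Apof, an apolipoprotein gene, was measured in treated cells alone, at -4.52, -4.39 and -3.91 in wild-type and -4.52, -4.51 and -4.94 in ΔC cells, and rose at least 3.09-fold and 2.71-fold. Tnfaip3, the gene of the NF-kB inhibitor A20, had responses of 3.82 and 3.52 with an interval of -1.09 to 0.49, just outside the limit. For Fos and Egr1 the differences were -0.39 (-1.20 to 0.42) and 0.37 (-0.27 to 1.02), also outside it.

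Targets of the integrated stress response, the programme that follows phosphorylation of eIF2α, showed no called difference. Of 58 tested, 0 were called in either fit, 2 were kept, and 3 (5.17%) had lower and 1 (1.72%) higher ΔC responses without overlap, against 6.85% and 9.51% of all genes. The median response was 0.27 in wild-type and 0.23 in ΔC cells. Atf4, the transcription factor gene of this programme, read 7.88, 7.89 and 7.99 untreated and 8.38, 8.34 and 8.09 treated in wild-type cells. In ΔC cells Atf4 read 7.48, 7.62 and 7.73 untreated and 8.09, 8.11 and 7.99 treated (difference 0.10, interval -0.26 to 0.47). Ddit3, which encodes CHOP, had responses of 1.18 and 1.08 from an untreated level that was 1.08 lower in ΔC cells. Atf3, an ATF4 target that other stress signals also induce, had responses of 5.61 and 4.29 (difference -1.32 ± 0.64, limma adjusted p = 0.975 and 0.697). ATF4 is regulated mainly at translation, which arrays of RNA levels do not measure.

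**Figure D4:**
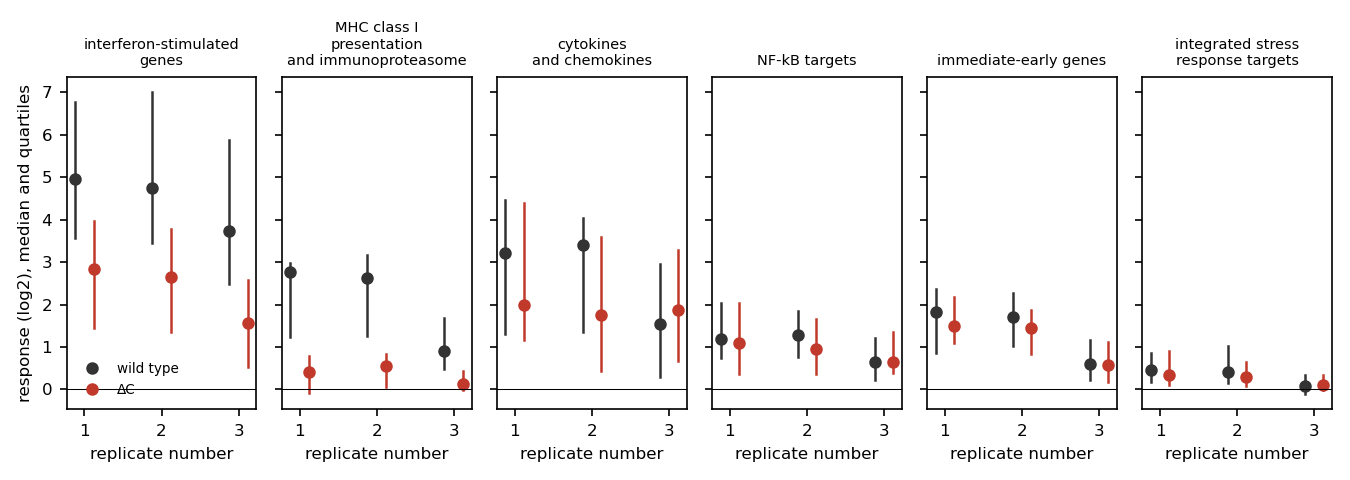
Median response (points) and quartiles (lines) of 6 gene lists in log2 units (vertical axis) for each replicate number (horizontal axis) in wild-type (dark) and ΔC (red) cells. Interferon-stimulated genes respond less in ΔC cells in each of the 3 experiments (4.96 against 2.83, 4.74 against 2.65 and 3.72 against 1.57), while the medians of NF-kB targets and immediate-early genes of the genotypes lie close together.

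Several values moved with the groups beside these results, and their part in them was not tested. Of 12 fibroblast markers, 11 were tested, and their summed level, in units of the 75th percentile, was 1060 to 1220 in untreated and 858 to 1010 in treated wild-type cells against 391 to 725 and 390 to 717 in ΔC cells. Of 13 macrophage and leukocyte markers 7 were tested, with sums of 10.0 to 23.6 over all arrays, and 5 to 7 of them were well above background on all 3 arrays of a group. The sums were 3.67 to 11.4 for 9 of 9 epithelial markers, 12.4 to 22.2 for 4 of 9 endothelial markers and 10.7 to 16.4 for 7 of 10 muscle and neural markers. Between 60.5 and 67.3% of probes were well above background on an array. Fewer responding cells and a smaller response per cell cannot be told apart in RNA of whole cultures.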

How the data were processed

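RNA from 12 cultures was measured on Agilent single-colour arrays. Feature Extraction 10.7.3.1 read the authors' scans, per the file headers, into spot intensity values that are background-subtracted, flagged for signal well above background and not normalized between arrays. A table of log2 values that the authors made was deposited too, for which the submitters' processing notes name limma with no version. Its column for 1 treated ΔC sample followed no scanner file (r = -0.0614 with its own, at most 0.258 with any), so it was used only as an alternative.

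From the scanner files, log2 intensities minus each array's 75th percentile over 55681 probes were used. Control spots were dropped, as were the 91 to 163 outliers of each array, and 0 spots were saturated. RefSeq accessions named 27235 probes. The probe with the highest mean stood for its gene. In 0 of 3993 genes with several probes did probes have called differences of opposite sign without the block. With so few differences called in that fit, this count says little about whether probes of a gene agree. Group means over 12 arrays were fitted with limma 3.58.1 in R 4.3.3 (8 residual degrees of freedom, prior 2.19), two-sided, with Benjamini-Hochberg adjustment over 15445 genes. The script was tested on simulated data. Where all 3 arrays of a group are at background, folds are bounds, written as at least, from the dimmest signal on each array that counts as above background. Errors are standard errors of the fit without the block (3 arrays per group). Arrays have no count depth, and their number limits the precision.

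Kept, smaller, no longer called, larger and gained follow from the calls of both responses and their difference. Text genes were the 12 largest called differences in each direction, 10 kept within 1 unit, up to 8 gained, 6 in each direction with a group at background, the 2 largest per list, and fixed genes, in either fit. Adamts1, Apobec1, Btg2, Dtx3l, H2-M3, Klf6, Nmi, Oas1c, Oasl2, Parp9, Parp10, Ppm1k, Psmb8, Rasgef1b, Tap2, Tent5a, Tmem140, Trim12a, Trim21, Zc3h12a and Znfx1 were named after their values were seen. The comparison, lists and named genes were chosen with earlier results of these data known.

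For pairing, deviations from group means were correlated between arrays of the same number. They gave -0.00806 to 0.0657 between untreated wild-type and treated ΔC cells, and 0.115 to 0.651 between the other pairs of groups. Whether the numbers pair all 4 groups is thus unclear, and both fits are reported. The alternatives varied scaling, background correction (normexp with offset 50 on median signals), filters, probe rule, source table, variance model, array weights, replicate, slide and scan day blocks, and left-out arrays.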

Additional observations from a re-analysis of the deposited data

Results flagged for a closer look

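3 results stood out because the responses of the genotypes differed by the test of the difference itself without the replicate block, 2 genes lower and 1 higher in ΔC cells. The difference was -7.24 for Gbp2b, -2.61 for Fbxo15 and 3.13 for Cxcl1 (limma adjusted p = 0.0483, 0.018 and 0.0176), and in each gene all 3 ΔC responses lay on 1 side of all 3 wild-type responses. In Gbp2b the ΔC cells had no measurable signal with or without poly(I:C), in Fbxo15 the genotypes parted with poly(I:C) only, and in Cxcl1 they parted mainly without it.

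Among the 14969 tested probes that no RefSeq accession named, which the comparisons above do not use, 1 probe had a called difference without the block, a lower one, and with the block 9 were lower and 1 higher. These probes were tested together with the named ones, 35200 in all, and an unnamed probe can belong to a known gene.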

How the results depend on the processing

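Counts of called genes moved with the block, the arrays used and, for some counts, the scaling. Without the block, 2 genes were lower, 1 higher, 241 kept, 54 kept within 1 unit, 2 smaller or no longer called, 1 larger and 0 gained, with 1046 called in wild-type and 284 in ΔC cells. The replicate block gave 37 lower, 4 higher, 37 smaller or no longer called and 3 gained. Slide as a block gave 0 lower, 0 higher, 53 kept, 4 within 1 unit, 0 smaller or no longer called and 0 larger, with 232 and 84 called, and scan day gave 0, 0, 100, 7, 0 and 0, with 529 and 145. Within the scan day that holds all 4 groups, an alternative chosen after seeing the data (6 arrays, with a single array in the untreated wild-type and the treated ΔC group, each assumed to vary like the other 2 groups), the numbers in that order were 164, 85, 688, 351, 172 and 5, with 42 gained and 3693 and 1089 called. Without the 4 arrays numbered 3 they were 360, 94, 1488, 1105, 410 and 5, with 26 gained and 5263 and 2029 called, and with array weights 498, 196, 1840, 1416, 593 and 8, with 66 gained and 6745 and 2670 called. The authors' table gave 0 for the first 6 counts, with 346 and 0 called, and without its mismatched column (also chosen after seeing the data) 0 lower, 0 higher, 139 kept, 31 within 1 unit, 0 smaller or no longer called and 0 larger, with 158 called in ΔC cells. Median scaling, which moved the median difference of all genes from 0.07 to -0.14, gave 1 lower, 1 smaller or no longer called, 9 within 1 unit and 595 called in wild-type cells. Normexp gave 9 lower, 2 higher, 93 within 1 unit, 9 smaller or no longer called and 2 larger. No filter gave 1 lower, 2 higher and 1 smaller or no longer called, the filter on all groups 1 lower and 1 smaller or no longer called, and the floor 2 higher and 1 gained. Leaving out 1 array at a time gave 0 to 200 lower, 0 to 10 higher, 138 to 273 kept, 18 to 71 within 1 unit, 0 to 207 smaller or no longer called, 0 to 1 larger and 0 to 1 gained, with 374 to 2234 and 154 to 356 called. The causes were not tested.

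The sign of the difference turned in genes with small or unmeasured differences. Within the scan day, and equally with either slide or scan day in the fit, it was 0.191 for Egr2, 0.0797 for Zfp36 and 0.448 for Ppp1r15a. For Apof it was -0.20 with median scaling, -0.45 with quantile normalization, -0.0197 with the percentile over detected probes, -0.19 at the floor, -1.45 in the authors' table and -0.39 there without the mismatched column. For Atf4 it was -0.106, -0.0687, -0.43 and -0.124 with median scaling, quantile normalization, the authors' table and the table without that column. In the authors' table Cxcl2 was at -0.99 and Egr1 at -0.12. With 1 array left out, the difference was -0.143 to 0.188 for Apof, -0.348 to 0.0282 for Egr2, -0.364 to 0.0431 for Klf6 and -0.266 to 0.159 for Ddit3. No count depth applies to arrays, and genes at background limit what a difference can show.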
